A study of Rattus norvegicus with 14 samples.

Results

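Rat IEC-6 cells were compared after exposure to the drugs described by the submitters as slowing the migration of these cells, indomethacin and NS-398, and after exposure to DMSO, the solvent control, or SC-560, which the submitters describe as lacking that effect. Members were the 8 arrays whose labels carry the suffix b, of 14 arrays in the series: 2 with 100 µM indomethacin, 2 with 100 µM NS-398, 2 with 1 µM SC-560 and 2 with DMSO alone, each after 72 h. The 6 arrays without the suffix (2 each of DMSO, NS-398 and SC-560) held no indomethacin and were kept apart as a check. Probe sets other than controls were tested if their signal reached 100 on at least 2 of the 8 arrays, which left 16856 of 31042 probe sets and 9566 named genes. The question was which changes both drugs share.

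IEC-6 is a line of untransformed epithelial cells from the crypts of rat small intestine, and all groups share it. Cultures were pooled before hybridisation and each pool went onto more than 1 chip, per the submitters' design text. The replicate error here is that between arrays and may be technical only. The SC-560 dose was lower than that of the other drugs, so dose and drug cannot be told apart in the comparison arm. Both drugs that slow migration were used at 100 µM, while the comparison arrays had 1 µM SC-560 or DMSO alone. Dose and the effect on migration therefore cannot be told apart in the main contrast either.

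Non-steroidal anti-inflammatory drugs block cyclooxygenases, the enzymes that turn arachidonic acid into the precursor of prostaglandins. Indomethacin blocks both forms, NS-398 prefers cyclooxygenase-2 and SC-560 prefers cyclooxygenase-1. After a superficial wound the gut epithelium closes the gap by crawling of neighbouring cells, which needs actin turnover, adhesion to matrix and calpain proteases, and these drugs can also act on cells in ways that do not pass through cyclooxygenase.

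The line was checked against its markers on the same arrays. Among 24 markers of intestinal epithelium on the array, 14 reached a signal of 100 on at least 1 suffix-b array, among them the adherens junction gene Cdh1 (2637 to 3671), the keratin Krt8 (4483 to 6893) and the desmosomal plaque gene Dsp (6043 to 6975). The defining markers Epcam (at most 77.2) and Fabp1 (at most 27.1) were near the floor. The mesenchymal genes Vim (21670 to 24587) and Col1a1 (19228 to 24194) were high on all 8 arrays. Cdx2, the transcription factor of intestinal identity, stood at 3072 to 5314 on the suffix-b arrays and at 55.0 to 124 on the arrays without the suffix, although the labels name 1 cell line for both. Median signals of the 8 arrays were 103 to 118, highest on the SC-560 arrays, and the 3' to 5' ratio of the beta-actin control was 1.22 to 1.34.

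Of the 16856 probe sets, 2668 (15.8%) were called in the contrast of the mean of both drugs against the mean of DMSO and SC-560 (limma, Benjamini-Hochberg adjusted p under 0.05), 1377 higher and 1291 lower. Taken one at a time against the same 4 arrays, indomethacin gave 1441 calls (8.55%) and NS-398 gave 3139 (18.6%). A change was counted as shared where all 3 contrasts passed with 1 sign. That held for 681 probe sets (4.04%), 375 higher and 306 lower, which came to 453 genes (4.74% of those tested), 260 higher (2.72%) and 193 lower (2.02%). The median shared rise was 0.44 and the median shared fall -0.40 on the log2(signal + 50) scale, and both drugs' differences reached 1.5-fold in 40 rises and 22 falls. They reached 2-fold in 7 rises and 2 falls. On 440 of the 453 genes the 4 treated arrays lay wholly above or wholly below the 4 others, which held for 8.34% (above) and 7.61% (below) of all genes. The 453 genes were called on the same 8 arrays, so this separation follows largely from the call and is no support. The single-drug contrasts share their comparison arrays, so the number that overlap is a count fixed by the rule and no evidence by itself.

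The count of shared probe sets moved with single arrays. It was 369 without the first DMSO array, 268 and 238 without the first and the second indomethacin array, and 409 without the second SC-560 array. The combined contrast fell to 1590 calls without the first DMSO array. Of the 681 shared probe sets, 127 (18.6%) were shared in each of the 8 fits that left out 1 array. Of the 30 largest shared changes 25 kept all 3 calls in each of those fits. The exceptions were Akr1b7 and Gpr12 (without either indomethacin array, and Gpr12 also without the second SC-560 array), Podn (without the first indomethacin array) and Ncald and Celsr2 (without the second one), whose limma adjusted p for indomethacin then lay between 0.0524 and 0.158.

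**Figure D1:**
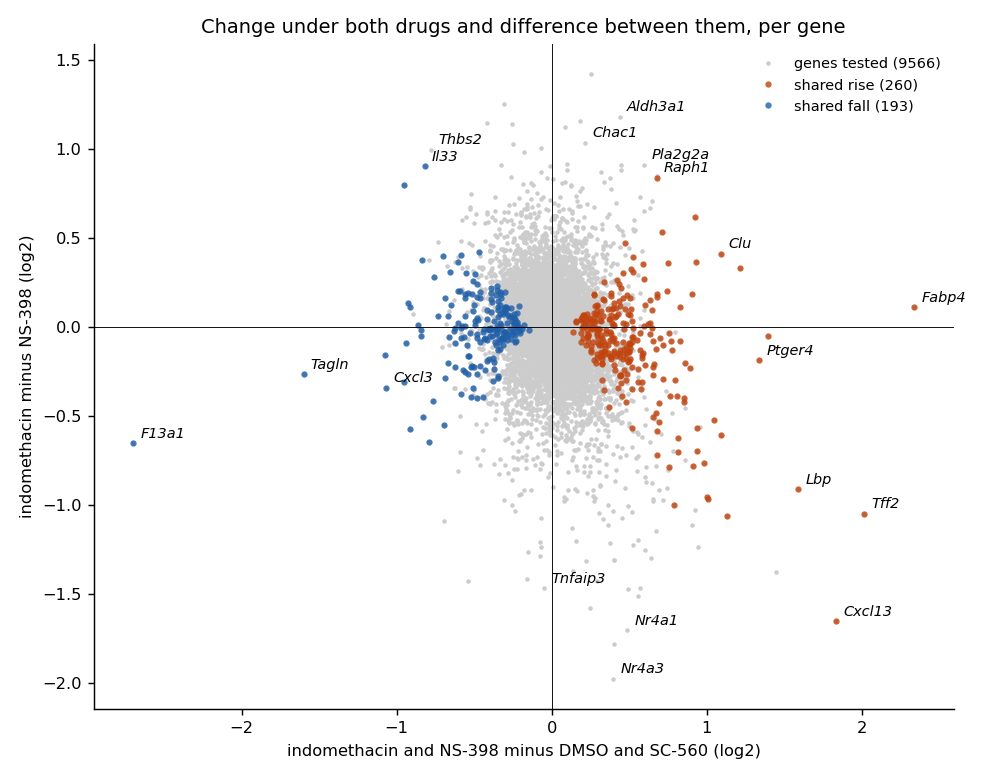
Each point is 1 of 9566 genes; the horizontal axis gives the mean log2 difference of indomethacin and NS-398 from DMSO and SC-560, and the vertical axis gives indomethacin minus NS-398. The 260 shared rises and 193 shared falls are coloured; Fabp4 lies far right at 2.34 with a drug difference of 0.11, while Nr4a3, not shared, lies at -1.98 on the vertical axis.

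The largest shared rise was that of Fabp4, a cytosolic carrier of fatty acids made by adipocytes, macrophages and some endothelium. Its signal was 176 and 143 on the DMSO arrays, 167 and 144 with SC-560, 1049 and 1031 with indomethacin and 898 and 1021 with NS-398. All 4 arrays of the drugs that slow migration stood above all 4 others, with no overlap. The difference was 2.34 ± 0.09 (standard error; 5.07-fold after the addition of 50; limma adjusted p 9.19e-08), and the drugs differed by 0.11 with a 95% interval from -0.16 to 0.38. Of 13 adipocyte markers on the array, 8 stayed under 100 on all 8 arrays, including Adipoq (at most 51.7) and Lep (at most 9.93). The summed signal of the 12 markers other than Fabp4 was 1149 to 1443 with the drugs that slow migration and 1033 to 1294 without, ranges that overlap, and the part of adipocyte-like cells in the rise was not tested.

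Gpr15lg, Lbp, Clu, Agr2, Tff2 and Cxcl13 were among the 15 largest shared rises. Gpr15lg, the ligand of a homing receptor of T cells, had 381 and 391 on the DMSO arrays, 465 and 629 with SC-560, 1220 and 1309 with indomethacin and 1307 and 1315 with NS-398 (a rise of 2.63-fold after the addition of 50, limma adjusted p 3.54e-06). Lbp, which binds bacterial lipopolysaccharide, had 397 to 515 on the 4 comparison arrays, 1074 and 1076 with indomethacin and 2120 and 2018 with NS-398. Both drugs thus lay above the comparison arrays, and Lbp rose further under NS-398 than under indomethacin (indomethacin minus NS-398 -0.91 ± 0.09, adjusted p 0.000124). Clu, a secreted chaperone, went the other way round, with a drug difference of 0.41 ± 0.07 (limma adjusted p 0.00466). It had 3652 and 4076 with DMSO, 4602 and 5342 with SC-560, 11064 and 10620 with indomethacin and 8181 and 8093 with NS-398. SC-560 thus stood between DMSO and the other drugs.

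Agr2, a disulfide isomerase of mucus-secreting cells, had 75.5 and 91.3 with DMSO, 153 and 116 with SC-560, 378 and 338 with indomethacin and 286 and 262 with NS-398. Here too SC-560 stood between DMSO and the other drugs. Tff2, a trefoil peptide that protects the mucosa, had 6.98 to 42.6 on the comparison arrays, 191 and 110 with indomethacin and 421 and 301 with NS-398. Tff2 lay below the signal minimum on every comparison array, so its difference of 2.01 ± 0.19 depends on the added 50. Of the 14 trefoil peptides and mucous secretory markers on the array, 6 reached 100 on at least 1 of the 8 arrays and 5 were tested. Agr2 and Tff2 were the shared ones (4.74% of all genes), and the mucin Muc2 was at most 97.7. Reg3g, an antibacterial lectin on the same list, stood lower with both drugs, at 312 to 349 on the comparison arrays, 252 and 194 with indomethacin and 275 and 297 with NS-398. Its difference passed for indomethacin (-0.46, limma adjusted p 0.0331) and not for NS-398 (-0.16, adjusted p 0.408). The trefoil peptide Tff3 was at -0.02 and 0.07 in the same order, and neither passed. Reg3g and Tff3 were named after their values were seen. Cxcl13, a chemokine for B cells, had 152 to 274 on the comparison arrays, 492 and 495 with indomethacin and 1864 and 1478 with NS-398, which is a rise of 1.01 ± 0.13 under indomethacin and of 2.66 ± 0.13 under NS-398 (adjusted p of the drug difference 0.00011).

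Further shared rises were smaller. Slc20a1, a phosphate carrier, rose by 0.83 ± 0.05, Sowahc by 0.75 ± 0.06, and Gja5, a gap junction connexin, by 0.83 ± 0.09. Ramp2, which turns the calcitonin-receptor-like receptor into a receptor of adrenomedullin, had 178 to 201 on the comparison arrays and 360.5 to 454 with the drugs. Tesc, a calcium-binding partner of the sodium-proton exchanger, rose by 0.79 ± 0.09 under indomethacin and 1.31 ± 0.09 under NS-398 (adjusted p of the difference 0.0107). Scara5, a ferritin receptor, rose by 0.59 ± 0.08 and 1.28 ± 0.08 in the same order (adjusted p of the difference 0.00066).

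**Figure D2:**
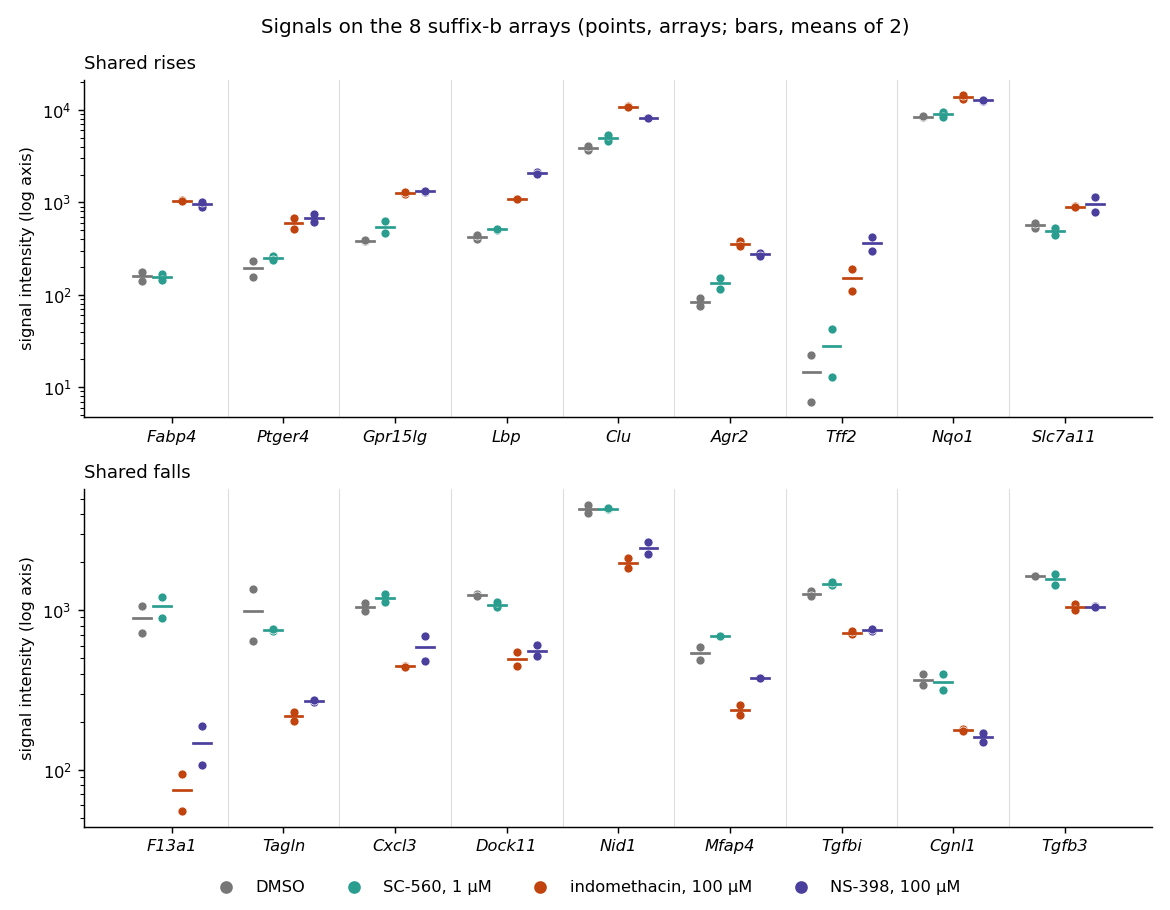
Signals on the 8 suffix-b arrays (log axis) of 9 shared rises and 9 shared falls; points are arrays and bars are means of 2. In each of the 18 genes the 4 arrays with indomethacin or NS-398 lie on 1 side of the 4 others, from Tff2 at the low end of the scale to Nqo1 and Clu near 10000.

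The largest shared fall was that of F13a1, the A subunit of coagulation factor XIII, which crosslinks fibrin and matrix. Its signal was 1060 and 715 with DMSO, 894 and 1215 with SC-560, 55.0 and 94.3 with indomethacin and 107 and 188 with NS-398. The groups did not overlap, and the difference was -2.70 ± 0.17 (6.51-fold lower, limma adjusted p 3.98e-06). Both indomethacin arrays lay under the signal minimum of 100, so the size of the fall depends on the added 50. F13a1 is also on the list of macrophage markers, of which 4 of 14 reached 100 on any of the 8 arrays. The leukocyte gene Ptprc was at most 29.4 and Csf1r at most 83.0. Cd14, also on that list, was a shared rise of 0.30 ± 0.05, lost for indomethacin without the second indomethacin array (adjusted p 0.0933) and for NS-398 without the first NS-398 array (0.0922). The summed signal of the 13 markers other than F13a1 was 4065 to 4519.5 with the drugs that slow migration and 3401 to 3706 without, ranges that do not overlap. With Cd14 left out as well, the sum of the remaining 12 was 367 to 457 with these drugs and 326 to 529.7 without, ranges that overlap.

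Tagln, an actin-binding protein of contractile cells, had 1349 and 639 with DMSO, 738 and 759 with SC-560, 203 and 230 with indomethacin and 266 and 274 with NS-398. The DMSO arrays differed by more than 2-fold from each other, and both still stood above the treated arrays (-1.60 ± 0.17, limma adjusted p 9.12e-05). Cxcl3, a chemokine for neutrophils, had 990 to 1267 on the comparison arrays, 447 and 442 with indomethacin and 483 and 684 with NS-398, and all 5 of its probe sets tested were shared falls (-0.75 to -1.12 in the combined contrast), though they disagreed on which drug had the larger one. Dock11, a guanine nucleotide exchange factor, had 1041 to 1267 on the comparison arrays and 444 to 600 with the drugs (-1.08 ± 0.08). Cgnl1, a tight junction protein, changed by -0.91 ± 0.10 and Hist2h2be, a histone H2B gene, by -0.93 ± 0.10, both shared falls. Lrrn4 (-0.74 ± 0.05), Fam180a (-0.85 ± 0.06) and the unconventional myosin Myo7a (-0.66 ± 0.08) fell by nearly equal amounts under both drugs; the drug differences were -0.06 to 0.06, each with an interval that spans 0.

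Targets of NRF2, the transcription factor that switches on antioxidant and detoxifying enzymes through the antioxidant response element, gave more shared rises than any of the other 41 lists. Of 25 tested, 8 were shared rises and none was a shared fall, against 2.72% and 2.02% of all genes; 19 rose in the combined contrast and none fell, against 9.57% and 8.07%. The median of the 25 was 0.32 in the combined contrast (-0.004 over all genes), 0.17 under indomethacin and 0.41 under NS-398. Akr1b8, an aldo-keto reductase, had 13783 and 14744 with DMSO, 16022 and 15504 with SC-560, 21473 and 22581 with indomethacin and 25019 and 25866 with NS-398. Nqo1, a quinone reductase, had 8277 to 9581 on the comparison arrays, 13112 and 14473 with indomethacin and 12583 and 12717 with NS-398. Slc7a11, the cystine carrier that feeds glutathione synthesis, had 446 to 600 on the comparison arrays and 783 to 1152 with the drugs. In each of these 3 genes the lowest treated array lay above the highest comparison array.

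The remaining shared members were the reductase Srxn1, the glutathione synthesis subunit Gclc, the exporter Abcc4, the transketolase Tkt and the thioredoxin Txn1, with combined rises of 0.50, 0.36, 0.44, 0.32 and 0.14 in that order. Gclc, Srxn1 and Txn1 were named after their values were seen, to complete the 8. Akr1b8 and Nqo1 stayed shared in all 8 fits that left out 1 array. Slc7a11 missed the threshold for indomethacin without the first indomethacin array (adjusted p 0.0553), Srxn1 without either one (0.0908 and 0.0897), and Gclc without either one or the second SC-560 array (0.133, 0.091 and 0.0526). Abcc4, Tkt and Txn1 lost the indomethacin call in 5, 6 and 5 of the 8 fits, in each case without either indomethacin array, the first DMSO array and the second SC-560 array among others, with adjusted p up to 0.168, 0.22 and 0.238. Txn1, at 24788 to 28984 on the 8 arrays, turned to -0.04 for NS-398 under quantile normalization.

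The 250 bases before the start of these genes were searched because the element through which NRF2 acts lies in promoters. Those of Akr1b8, Nqo1, Slc7a11 and Srxn1 are shown, all of which hold a match. Those of Abcc4, Tkt, Gclc and Txn1 were searched but are not printed. The sequences are RefSeq's on the build GRCr8, read 5′ to 3′ on the gene's strand, and all 8 genes were in the table. The core searched was TGANNNNGC on both strands, and capitals mark its matches.
Akr1b8, chr4:63964171-63964420, plus strand: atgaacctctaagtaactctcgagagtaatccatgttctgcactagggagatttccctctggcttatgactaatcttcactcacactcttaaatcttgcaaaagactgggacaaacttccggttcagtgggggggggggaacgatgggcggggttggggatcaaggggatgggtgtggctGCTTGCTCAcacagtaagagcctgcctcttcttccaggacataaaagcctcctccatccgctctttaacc
Nqo1, chr19:52220268-52220517, minus strand: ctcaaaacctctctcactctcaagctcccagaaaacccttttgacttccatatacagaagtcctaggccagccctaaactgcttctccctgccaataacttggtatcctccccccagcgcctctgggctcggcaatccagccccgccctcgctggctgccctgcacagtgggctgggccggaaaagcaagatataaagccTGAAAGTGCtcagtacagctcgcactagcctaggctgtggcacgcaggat
Slc7a11, chr2:136668265-136668514, minus strand: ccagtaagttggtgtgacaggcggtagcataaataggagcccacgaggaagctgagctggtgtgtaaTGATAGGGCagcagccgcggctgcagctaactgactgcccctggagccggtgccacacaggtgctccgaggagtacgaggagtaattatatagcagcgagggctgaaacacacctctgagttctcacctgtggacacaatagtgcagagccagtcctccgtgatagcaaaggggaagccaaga
Srxn1, chr3:161064562-161064811, plus strand: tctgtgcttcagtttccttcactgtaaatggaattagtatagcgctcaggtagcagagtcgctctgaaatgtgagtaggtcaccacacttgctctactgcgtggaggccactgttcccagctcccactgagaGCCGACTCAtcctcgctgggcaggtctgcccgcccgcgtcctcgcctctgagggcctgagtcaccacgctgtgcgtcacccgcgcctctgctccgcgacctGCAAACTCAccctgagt
Akr1b8, Nqo1 and Slc7a11 each hold 1 match and Srxn1 holds 2. In all, 6 of the 8 promoters held a match; those of Gclc and Txn1 held none in this window. The pattern is short: it was found in 34.6% of all 27457 promoters in the table and in 37.2% of the 8049 of genes tested. Among shared genes it was found in 41.4% of the 215 promoters of rises and in 39.2% of the 158 of falls. A match is a description of these letters and not a measured binding site.

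Genes of the extracellular matrix, the scaffold on which cells crawl, moved both ways. Of 33 tested, 7 were shared falls and 3 shared rises (2.02% and 2.72% of all genes), with a median of -0.10 in the combined contrast. Mfap4, a microfibril-associated protein, had 587 and 489 with DMSO, 691 and 684 with SC-560, 219 and 254 with indomethacin and 376 and 374 with NS-398. The fall of Mfap4 was larger under indomethacin (drug difference -0.57 ± 0.12, adjusted p 0.0114). Fbln2, which links elastic fibres to basement membrane, changed by -0.59 ± 0.05, with 12341 to 13245 on the comparison arrays and 7265 to 9231 with the drugs.

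The shared matrix rises were the collagen VI chains Col6a1 (0.72 ± 0.06) and Col6a2 (0.59 ± 0.06) and the phosphoprotein Spp1 (0.48 ± 0.04). Col6a1 had 1770 and 1996 with DMSO, 2517 and 2652 with SC-560, 3582 and 3486 with indomethacin and 3455 and 4177 with NS-398, so SC-560 stood between DMSO and the other drugs. In the basement membrane list of 14, the linker Nid1 had 4052 to 4583 on the comparison arrays, 2133 and 1823 with indomethacin and 2677 and 2253 with NS-398 (-0.96 ± 0.07). A dimmer probe set of Nid1 was at -0.41 in the combined contrast and was not shared. The laminin chain Lamb3 was the other shared fall of that list, and it was shared in only 2 of the 8 fits that left out 1 array, with adjusted p up to 0.162. Markers of fibroblasts and smooth muscle, 18 on the array, summed to 110103 to 117067 with the drugs that slow migration and to 109376 to 126888 without, and the part of other cells in the matrix values was not tested.

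Of 35 genes of actin dynamics and motility, 2 were shared rises and 3 shared falls, against 2.72% and 2.02% of all genes, with medians of 0.03 under indomethacin and -0.10 under NS-398. Ezr, which ties the membrane to actin, had 8271 to 8880 on the comparison arrays and 6598 to 7216 with the drugs (-0.32 ± 0.04). Raph1, which acts on actin filaments in protrusions, had 1597 to 1929 on the comparison arrays, 4009 and 3721 with indomethacin and 2169 and 2102 with NS-398. Its small difference under NS-398 (0.26 ± 0.08) missed the threshold in 6 of the 8 fits that left out 1 array. Other tested probe sets of Raph1 were not shared and lay at -0.12, 0.35 and 0.07 under NS-398. The other shared rise of the list, Wasl (0.27 in the combined contrast), was shared in only 1 of the 8 fits. Its other tested probe sets (0.22 and 0.09) were not shared. Of the shared falls, Ezr stayed shared in all 8 fits, and Afap1l2 and Fhl1 in 5 each.

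The list of 17 contractile genes and targets of the serum response factor had a median of -0.01 in the combined contrast. Of these, 3 were shared falls and none a shared rise, against 2.02% and 2.72% of all genes. Besides Tagln these were the tropomyosin Tpm1 (12495, 11774, 11882 and 12022 on the DMSO and SC-560 arrays, 9644, 9201, 9723 and 8672 with the drugs) and the caldesmon Cald1. The call of Cald1 for NS-398 was lost without the first DMSO array, either NS-398 array or the second SC-560 array (adjusted p 0.113 to 0.169). A dimmer probe set of Cald1 was at -0.18 in the combined contrast and was not shared. The fall was therefore that of a few members of the list: the smooth muscle actin Acta2 had -0.24 in the combined contrast and did not pass. Of 23 genes of integrins and focal adhesion, 2 were shared rises (2.72% of all genes), the integrin Itgb4 (0.53 ± 0.08) and the tensin Tns3 (0.29 ± 0.05). Itgb4 lost its NS-398 call in 5 fits (adjusted p 0.0524 to 0.168) and Tns3 in 1, without the second NS-398 array (0.125). Without the suffix, Tns3 was called lower with NS-398 (-0.19, adjusted p 0.0361).

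Among genes of prostaglandin synthesis and its receptors, 11 tested, 3 were shared rises and 1 a shared fall (2.72% and 2.02% of all genes). Ptger4, a receptor of prostaglandin E2 that raises cyclic AMP, had 156 and 234 with DMSO, 265 and 239 with SC-560, 513 and 680 with indomethacin and 616 and 748 with NS-398. The treated arrays all lay above the others (1.34 ± 0.12, limma adjusted p 3.87e-05), and the drugs differed by -0.19 with an interval from -0.56 to 0.19. Ptgs2, cyclooxygenase-2 itself, was not shared: it had 1386 and 1416 with DMSO, 1081 and 1311 with SC-560, 1025 and 1072 with indomethacin and 1784 and 1502 with NS-398. Ptgs2 rose under NS-398 (0.33 ± 0.09, adjusted p 0.0243), was at -0.29 ± 0.09 under indomethacin (adjusted p 0.0713), and differed between the drugs (-0.62 ± 0.10, adjusted p 0.00356). Ptgs1, cyclooxygenase-1, was at most 51.7 on the suffix-b arrays and was not tested. The phospholipase Pla2g4a (0.50 ± 0.08) and the prostacyclin synthase Ptgis (-0.50 ± 0.09) each lost the indomethacin call in 4 of the 8 fits, with adjusted p up to 0.174 and 0.215.

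Of 8 genes of the calpain system tested, 1 was a shared rise (2.72% of all genes): Cast, the endogenous inhibitor of calpains. Cast had 2967 and 3174 with DMSO, 2943 and 2862 with SC-560, 3578 and 3755 with indomethacin and 4286 and 4035 with NS-398. The difference was 0.38 ± 0.04 (limma adjusted p 0.000208); without the second indomethacin array, indomethacin was at 0.26 with an adjusted p of 0.0951. The proteases themselves did not pass in the combined contrast. Capn2 had 3130 to 3457 on the comparison arrays, 3509 and 3148 with indomethacin and 2929 and 2884 with NS-398, and Capn1 had 574 to 636 against 509 to 684. Without the suffix, NS-398 lowered Capn2 (-0.33, limma adjusted p 0.00203) and the small subunit Capns1 (-0.29, adjusted p 0.00507). Cast was at -0.14 there (adjusted p 0.169), so its NS-398 rise depended on the label set (interaction 0.61, adjusted p 0.000494).

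Wnt signalling, which maintains crypts, gave 4 shared rises and no shared fall of 19 tested (2.72% and 2.02% of all genes), beside a list median of 0.05. Ccnd1, the cyclin that drives entry into the cell cycle, had 3718 and 4032 with DMSO, 4995 and 5133 with SC-560, 6667 and 6052 with indomethacin and 6481 and 7602 with NS-398, so that SC-560 again stood between. Cd44, a receptor of hyaluronan, rose by 0.44 ± 0.05 (indomethacin adjusted p 0.0994 without the second indomethacin array). In TGF-beta signalling, 22 tested, the ligand Tgfb3 had 1441 to 1682 on the comparison arrays and 1008 to 1085 with the drugs (-0.59 ± 0.06), while the signal transducer Smad2 rose by 0.49 ± 0.05. Tgfbi, an adhesion protein induced by TGF-beta, had 1220 to 1490 on the comparison arrays and 704 to 763 with the drugs, which did not overlap. Igfbp2, which binds insulin-like growth factors, had 3954 to 4419 on the comparison arrays and 2436 to 2998 with the drugs, with a drug difference of 0.00 (interval from -0.19 to 0.18).

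Cdx2 itself rose: 3072 and 3607 with DMSO, 3660 and 3532 with SC-560, 4773 and 5007 with indomethacin and 4871 and 5314 with NS-398 (0.52 ± 0.05, limma adjusted p 9.25e-05). It was the only shared member among 13 epithelial markers tested, against 4.74% of all genes.

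Genes of stress and growth programmes often differed between the drugs. Of 26 genes of glycolysis and the hypoxia response, 18 rose in the combined contrast and none fell (9.57% and 8.07% of all genes). Shared rises numbered 6 (2.72%), and 15 were higher under NS-398 than under indomethacin (6.5%). The median of the 26 was 0.15 under indomethacin and 0.50 under NS-398. Without the suffix the NS-398 median was 0.04, and of 25 tested there 7 rose (8.42% of all genes) and 3 fell (8.97%), among them the glycolytic enzyme Aldoa (-0.15, limma adjusted p 0.0422). Aldoa was a shared rise on the suffix-b arrays that lost the indomethacin call in 6 of the 8 fits that left out 1 array, all but those without an NS-398 array (adjusted p 0.0532 to 0.18). Vegfa, a growth factor for vessels, had 1077 to 1321 on the comparison arrays, 1381 and 1574 with indomethacin and 2444 and 2481 with NS-398, and its indomethacin call was lost without the second indomethacin array (adjusted p 0.198). Car9, a carbonic anhydrase induced by low oxygen, had 4411 to 4845, then 5472 and 5554, then 8238 and 8138, and was lost without either indomethacin array (0.0773 and 0.11).

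The unfolded protein response also rose but ran the other way between the drugs. Of 24 genes tested, 12 rose in the combined contrast and none fell (9.57% and 8.07% of all genes), and 2 were shared rises (2.72%). Between the drugs, 11 were higher under indomethacin than under NS-398 (4.38%) and none lower (6.5%). Sdf2l1, a cofactor of the chaperone BiP, had 1341 to 1517 on the comparison arrays, 2377 and 2284 with indomethacin and 1895 and 1850 with NS-398. The list of ATF4 targets held 28 tested genes, of which 3 were shared rises (2.72% of all genes). In the combined contrast 12 rose and 3 fell (9.57% and 8.07%). Between the drugs, 15 were higher under indomethacin (4.38%) and 4 higher under NS-398 (6.5%). Slc3a2, the heavy chain of amino acid carriers, rose by 0.67 ± 0.04 under indomethacin and 0.35 ± 0.04 under NS-398, and Ddit4, an inhibitor of the kinase mTOR, by 0.42 ± 0.06 and 0.96 ± 0.06. Of 19 aminoacyl-tRNA synthetases, 9 were higher under indomethacin than under NS-398 (4.38% of all genes) and none lower (6.5%). Against the comparison arrays, 10 fell and none rose under NS-398 (9.27% and 11.4%), and the medians were 0.12 under indomethacin and -0.20 under NS-398. The 1 shared fall (2.02%) was that of Vars1, lost without either indomethacin array or the first NS-398 array. None of 20 cytosolic ribosomal protein genes, 30 proteasome subunits or 31 DNA replication genes was shared, against 4.74% of all genes. The ribosomal genes still differed: 14 of the 20 rose and 1 fell in the combined contrast (9.57% and 8.07% of all genes). Under NS-398, 19 rose and 1 fell (11.4% and 9.27%), with a median of 0.21. Between the drugs, 12 were higher under NS-398 than under indomethacin (6.5%). Of 29 mitotic genes, 2 were shared falls and 1 a shared rise (2.02% and 2.72% of all genes).

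**Figure D3:**
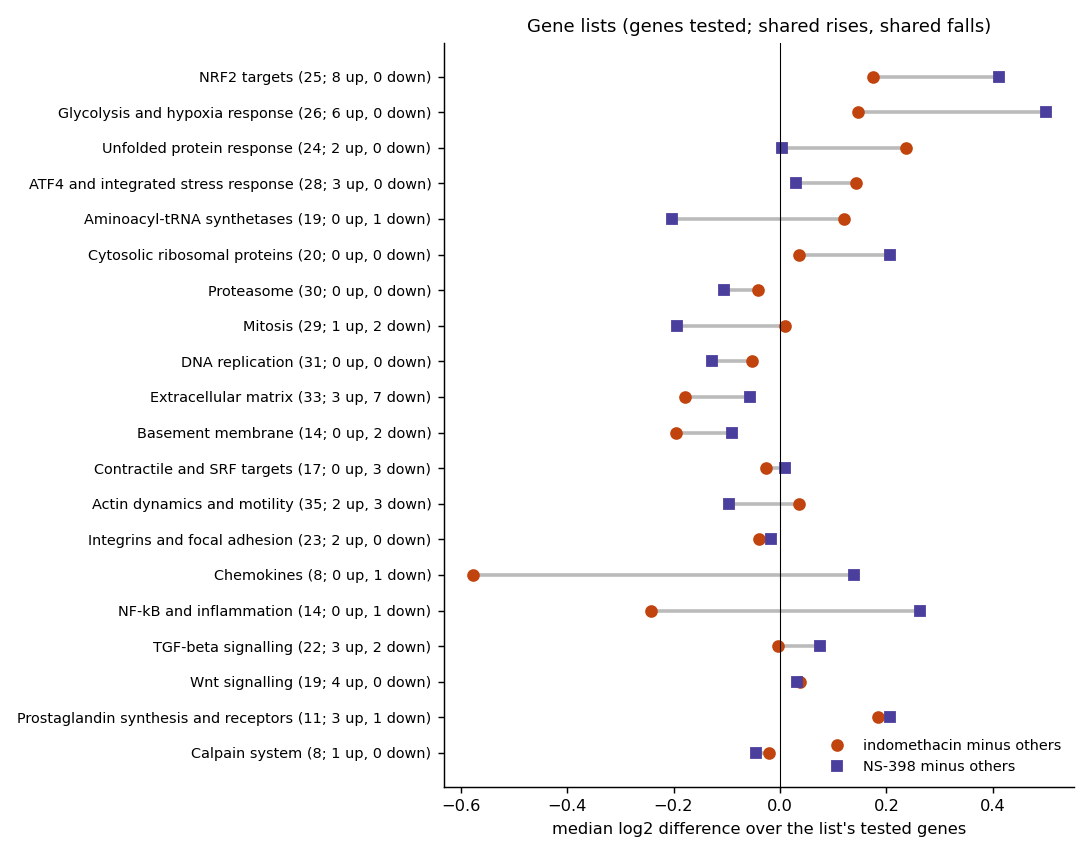
Median log2 difference from DMSO and SC-560 over the tested genes of 20 lists, for indomethacin (circles) and NS-398 (squares), joined by a line; the counts after each name are genes tested, shared rises and shared falls. NRF2 targets lie right of 0 for both drugs (0.17 and 0.41), while chemokines lie at -0.58 for indomethacin and 0.14 for NS-398.

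The drugs were compared directly at equal dose and time, a difference that uses none of the comparison arrays. This contrast called 1660 probe sets (9.85%) and 1041 genes, 419 higher under indomethacin and 622 higher under NS-398. Without the first or the second indomethacin array it called 693 and 745 probe sets, and without the first or the second NS-398 array 1015 and 931. Among the 453 shared genes, 69 (15.2%) differed between the drugs, 50 with the larger change under NS-398 and 19 under indomethacin. The other 384 were not called different, which does not show that the drugs act alike on them. A further 39 genes were called in opposite directions, 14 up under indomethacin and 25 up under NS-398.

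The widest gap in favour of NS-398 was that of Nr4a3, an orphan nuclear receptor and early response gene. Nr4a3 had 268 and 317 with DMSO, 280 and 398 with SC-560, 196 and 185 with indomethacin and 883 and 908 with NS-398. It was therefore lower than the comparison arrays under indomethacin and higher under NS-398 (indomethacin minus NS-398 -1.98 ± 0.15, limma adjusted p 3.46e-05). Of the same family, Nr4a1 differed by -1.71 ± 0.14 and Nr4a2 by -1.58 ± 0.16, and the secreted protein Wfdc18 lay between Nr4a3 and Nr4a1 at -1.78. The NS-398 rise of these receptors depended on the label set. Without the suffix, NS-398 was at 0.10 for Nr4a3 (limma adjusted p 0.463) and 0.24 for Nr4a2 (adjusted p 0.215), and Nr4a1 fell by 0.42 (adjusted p 0.00603). The interaction was 1.76 for Nr4a1 (adjusted p 1.54e-05), 1.28 for Nr4a3 (0.000289) and 0.80 for Nr4a2 (0.0193). The NF-kB regulators Tnfaip3 and Nfkbiz lay in the same order: Tnfaip3 had 713 to 1254 on the comparison arrays, 681 and 523 with indomethacin and 1981 and 1525 with NS-398, and Nfkbiz had 661 to 921, then 453 and 521, then 1331 and 1107. The small proteoglycan Dcn (drug difference -1.29 ± 0.14) and the ligand Wnt4 (-1.37 ± 0.13) were also called down under indomethacin and up under NS-398.

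The widest gaps in favour of indomethacin were those of Aldh3a1 and Aass. Aldh3a1, an aldehyde dehydrogenase, had 128 to 186 on the comparison arrays, 430 and 341 with indomethacin and 149 and 133 with NS-398, so that NS-398 overlapped the comparison arrays. Aass, an enzyme of lysine breakdown, had 167 to 264 on the comparison arrays, 250 and 247 with indomethacin and 96.1 and 74.0 with NS-398, so that here indomethacin overlapped them. Chac1, which degrades glutathione and is a target of ATF4, had 596 to 798, then 1116 and 1176, then 521 and 545, and was called up under indomethacin and down under NS-398. Pla2g2a, a secreted phospholipase, rose under indomethacin (1.05 ± 0.08) and was at 0.14 ± 0.08 under NS-398 (adjusted p 0.25).

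**Figure D4:**
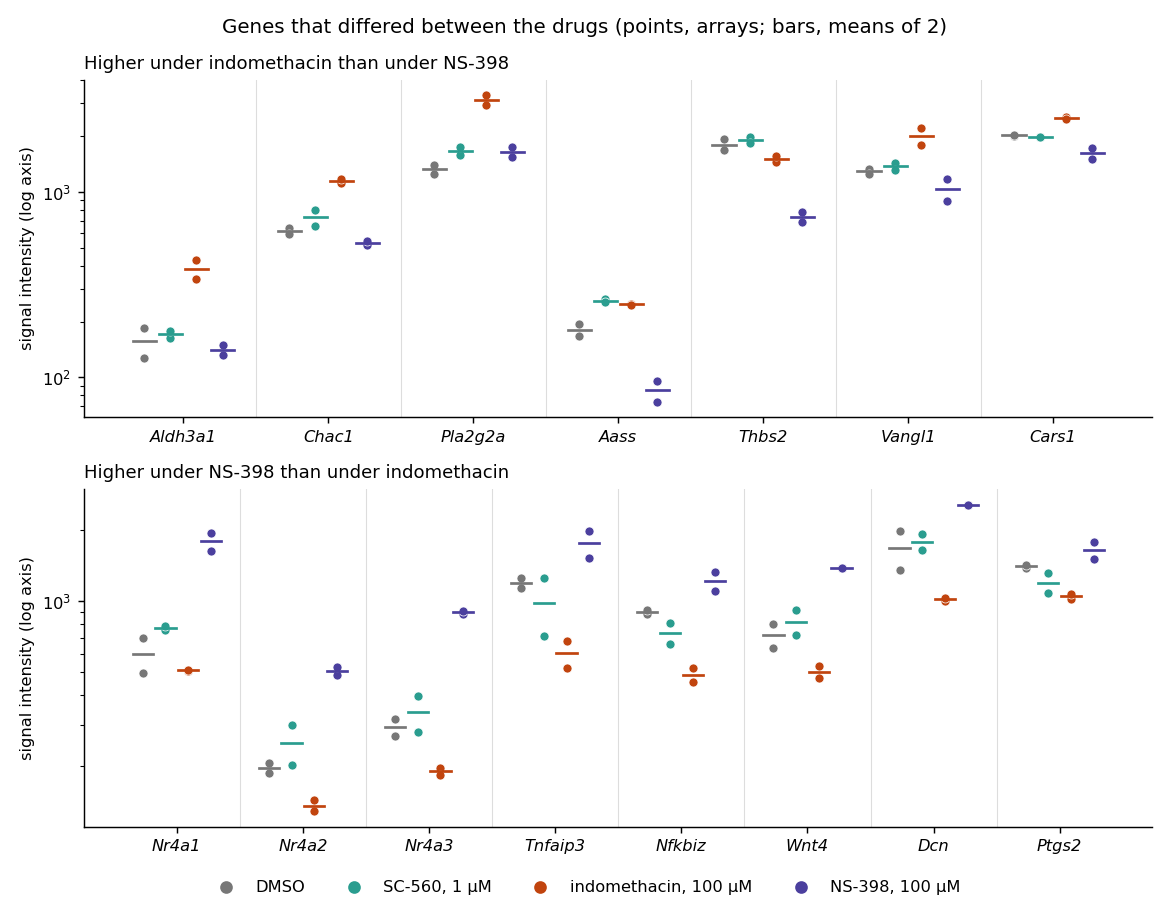
Signals on the 8 suffix-b arrays (log axis) of 7 genes higher under indomethacin and 8 higher under NS-398; points are arrays and bars are means of 2. Nr4a3 falls from 268 to 398 on the comparison arrays to 185 and 196 with indomethacin and rises to 883 and 908 with NS-398.

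The arrays averaged as the comparison arm were set against each other. SC-560 differed from DMSO in 3 of 16856 probe sets (0.0178%) at the adjusted threshold and in 1764 at an unadjusted p under 0.05. The 3 were Gpt2, Mrpl28 and Med6, named because they are the whole of that count, all higher with SC-560. Med6, a subunit of the mediator complex, was the only shared gene among them. The small count at the adjusted threshold does not show that the SC-560 and DMSO arrays were alike. With DMSO alone as the comparison arm, 622 probe sets were shared, of which 477 were among the 681.

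NS-398 could be checked on the 6 arrays without the suffix, which the main comparison did not use. That fit called 709 to 2783 probe sets when 1 array was left out, with 1639 without the second DMSO array, 969 without the first NS-398 array and 709 without the second. Of the shared rises, 238 were tested there, 155 (65.1%) had the same sign and 72 (30.3%) were called up, against 8.42% of all genes, while 17 were called down. Of the shared falls, 185 were tested, 132 (71.4%) had the same sign and 62 (33.5%) were called down, against 8.97% of all genes, while 14 were called up. The median NS-398 difference of these rises was 0.42 on the suffix-b arrays and 0.11 without the suffix, and that of the falls -0.39 and -0.14. Of the genes called for NS-398 but not shared, 73.3% of the rises and 67.9% of the falls had the same sign without the suffix, and 24.0% and 20.1% were called with it. The NS-398 difference itself depended on the label set (limma interaction, adjusted p under 0.05) in 113 of the 260 shared rises and 65 of the 193 shared falls, against 10.6% of all genes. The shared genes were chosen for their NS-398 difference on suffix-b arrays that also enter the interaction. A share above that of all genes is thus partly fixed by the choice. Indomethacin could not be checked without the suffix.

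Fabp4 held: without the suffix it had 635 and 572 with DMSO, 667 and 518 with SC-560 and 1931 and 2052 with NS-398 (1.66, limma adjusted p 1.23e-06). Dock11 (-1.13), Fam180a (-1.59), Clu (0.70), Akr1b8 (1.01) and Slc7a11 (1.57) were called there with the sign of the suffix-b arrays. Of 25 NRF2 targets, 21 rose under NS-398 without the suffix and 1 fell, against 8.42% and 8.97% of all genes. The fall was that of the malic enzyme Me1 (-0.33, limma adjusted p 0.0459), named after its value was seen. Il33, an alarmin, went against its shared fall: it had 3188 to 3950 on the suffix-b comparison arrays and 1467 and 1427 with NS-398, but 558 to 588 and then 1094 and 1397 without the suffix. The shared fall of Il33 itself was lost for indomethacin without the first indomethacin array (adjusted p 0.21) and without the first SC-560 array (0.0536). Of the other named shared rises, Col6a2 (-0.71), the death receptor Fas (-0.61), the kinase Plk2 (-0.55), the transcriptional inhibitor Id1 (-0.29), Tns3 (-0.19) and Aldoa (-0.15) were also called in the opposite direction without the suffix. So were the shared falls Odc1, the first enzyme of polyamine synthesis (0.51), and Cdc42ep2 (0.36). On the suffix-b arrays Fas lost its NS-398 call in all fits but that without the first NS-398 array (adjusted p 0.0595 to 0.329), and its indomethacin call without the second indomethacin array (0.0692). Id1 was lost without either indomethacin array or the first NS-398 array (0.0566 to 0.119), and Odc1 without the first DMSO, first NS-398 or second SC-560 array (0.0791 to 0.191). Cdc42ep2 was lost without the first NS-398 array (0.201) or the second SC-560 array (0.0515), while the losses of Tns3 and Aldoa are given with their lists. F13a1, Ptger4, Gpr15lg, Cxcl13 and Cdx2 did not reach the minimum there on enough arrays: F13a1 was at most 58.0 and Cxcl13 at most 43.9.

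**Figure D5:**
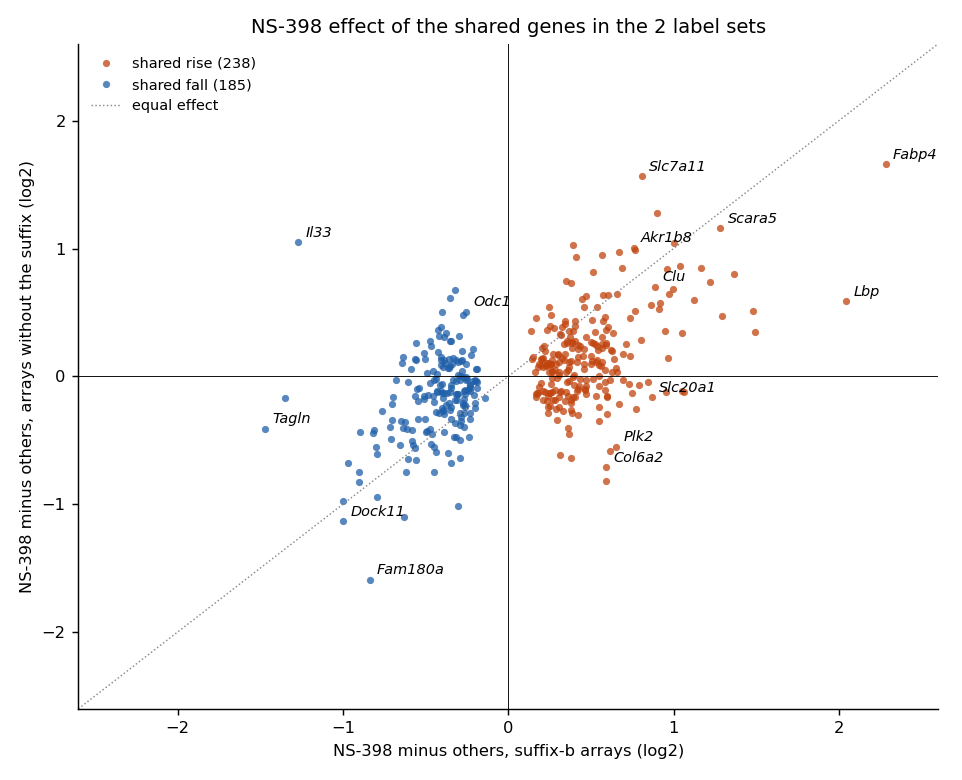
NS-398 minus DMSO and SC-560 (log2) for 238 shared rises and 185 shared falls tested in both label sets, suffix-b arrays on the horizontal axis and arrays without the suffix on the vertical axis; the dotted line marks equal effects. Fabp4 lies at 2.28 and 1.66, and Il33 lies in the opposite quadrant at -1.27 and 1.05.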

How the data were processed

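The authors deposited linear signal intensities of 1-colour Affymetrix arrays, each array being scaled over all its probe sets to a target of 500 per the labels. The mean after trimming 2% at each end was 499.98 on every array. How probes were summarised is not given in the sources used here. Values on the log2(signal + 50) scale entered limma 3.58.1 (R 4.3.3) with 1 mean for each of the 4 groups of the 8 arrays (4 residual degrees of freedom), empirical Bayes with an intensity trend, and Benjamini-Hochberg adjustment over 16856 probe sets. Errors after ± are standard errors, and their number limits the precision. A gene was represented by its brightest probe set tested. Other tested probe sets of a shared gene were not always shared, as with Raph1, Nid1, Cald1, Tns3, Vegfa and Gclc. Of the probe sets, 1 symbol belonged to 20832, several to 436 and none in the annotation to 9831. Symbols were updated through RefSeq (GRCr8). Members and lists (42, with 937 genes) were chosen with earlier results of these data known. Named genes are the 15 largest shared changes each way by the smaller of both drugs' differences, the 8 largest drug differences each way, up to 5 opposite calls each way, up to 3 shared members of a list each way, and the calpain and cyclooxygenase genes. Replicate digits did not pair arrays (correlations of deviations from -0.08 to 0.07). On simulated data of 16856 probe sets, 27% of changes of 0.5 made by both drugs were called shared and 84% of changes of 1. Of changes made by NS-398 alone, 0% were. Each simulation changed only 100 probe sets by both drugs and 100 by NS-398 alone, while NS-398 gave calls in 18.6% of probe sets in the data. The adjusted threshold was therefore stricter in the simulation, and these shares do not carry over to the data.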

Additional observations from a re-analysis of the deposited data

Results flagged for a closer look

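NS-398, DMSO and SC-560 arrays lie in both label sets, and the NS-398 difference was tested between the sets. Of 100 named shared genes, 48 (48%) had an NS-398 difference that depended on the label set (limma interaction, adjusted p under 0.05), against 10.6% of all genes. Values below are the suffix-b minus the no-suffix difference on the log2 scale. The named genes were chosen on the suffix-b arrays, which also enter this test, so a share above that of all genes is partly fixed by the choice.

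Differences above 0 among genes of secretion, defence and signalling were those of Cxcl13 (2.98), Tff2 (1.93), Akr1b7 (1.55), Lbp (1.46), Gpr15lg (1.30), Ptger4 (1.30), Serpina3n (1.30), Gja5 (1.29), Tesc (1.05), Cdx2 (0.83) and Agr2 (0.71). Of these, all but Lbp and Agr2 stayed under or near the signal minimum without the suffix. Further such differences were those of Col6a2 (1.30), Plk2 (1.20), Serpine2 (1.14), Col6a1 (1.03), Slc20a1 (1.03), Fas (0.93), Errfi1 (0.82), Ncald (0.82), Pla2g4a (0.76), Aldoa (0.75), Fam180a (0.75), Acot2 (0.68), Id1 (0.67), Smad2 (0.64), Hspb1 (0.63), Fabp4 (0.62), Cast (0.61), Car9 (0.52), Tns3 (0.43), Adam17 (0.40), Sgk1 (0.32) and Wasl (0.28). Fam180a fell in both sets, and further without the suffix.

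Differences below 0 were those of Il33 (-2.32), F13a1 (-2.29), Gpr12 (-1.34), Tagln (-1.06), Cdc42ep2 (-0.78), Odc1 (-0.76), Slc7a11 (-0.76), Ccna2 (-0.65), Spp1 (-0.63), Fbln2 (-0.53), Gclc (-0.52), Kif23 (-0.50), Lrrn4 (-0.49), Akr1b8 (-0.24) and Plagl1 (-0.22). F13a1 and Gpr12 stayed under the signal minimum without the suffix. The NRF2 targets Slc7a11, Gclc and Akr1b8 rose in both sets, and further without the suffix.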

How the results depend on the processing

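Groups of 2 arrays limit all counts. Without the signal filter the combined contrast called 1693 probe sets, 354 were shared, 813 differed between the drugs and 1 between SC-560 and DMSO. Without the intensity trend these counts were 1466, 272, 636 and 0, and NS-398 without the suffix gave 1333. With all 14 arrays and a label set term they were 1768, 309, 954 and 0. With 2 means in place of 4 the combined contrast called 942. In the main fit, 98 shared probe sets had a smaller difference of at least 1.5-fold. Leaving out 1 array gave 1590 to 2354 combined calls, 238 to 646 shared, 693 to 1508 between the drugs, 0 to 8 between SC-560 and DMSO and 709 to 2783 for NS-398 without the suffix. Same-numbered arrays did not deviate together; with the replicate number as a block, 2531 combined, 631 shared and 1555 drug-difference calls and 1 SC-560 call were made. Under quantile normalization Txn1 turned to -0.042 for NS-398 and 0.10 for indomethacin minus NS-398. With all 14 arrays the NS-398 values of Col6a2 (-0.058), Fas (-0.15), Hspb1 (-0.022) and Odc1 (0.13), the indomethacin value of Il33 (0.021) and the combined values of Nr4a1 (-0.10), Nr4a3 (-0.031) and Wfdc18 (-0.045) changed sign. The causes were not tested. Of the 30 largest shared changes, 19 kept all 3 calls under every alternative run.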
